A study of Oryctolagus cuniculus with 8 samples.

Results

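Genes that carry thyroid hormone into and through the retina, convert it, bind it and respond to it were followed in rabbit retinas after long-term feeding with fat, sucrose or both. The set held 7 genes of the 25666 in the deposited table: TTR, SLCO1C1, DIO2, DIO3, THRA, THRB and CRYM. They were chosen by their known roles and by their FPKM (fragments scaled for the length of the gene and the depth of the library) in these same 8 libraries, with OPN1SW, the opsin of short-wavelength cones, as the gene to set them against. The levels and the differences between diets that follow for these genes are therefore a description of the values that chose them. Rows with the gene symbol were found for 6 of the 7, and DIO2, the deiodinase that activates the hormone, was not analysed here. All 6 were above the minimum level for testing, 1 FPKM in at least 2 libraries, which 12204 protein-coding genes reached.

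Male wild-type Chinchilla rabbits, a pigmented breed given in the labels as 12 to 16 weeks old, were fed for 6 months, and RNA of dissected retinas was sequenced from 2 retinas per diet. The normal diet (ND) was standard chow. To this chow the high-fat diet (HFD) added 10% lard and 0.5% cholesterol, the high-sucrose diet (HSD) 40% sucrose, and the combined diet (HFSD) the same lard and cholesterol together with sucrose at 35%. The labels do not say whether the 2 retinas of a diet came from separate rabbits, so p-values measure only the spread between these retinas, and 2 per diet limits every comparison.

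Thyroid hormone circulates mostly as thyroxine, bound to carrier proteins such as transthyretin. It enters cells through membrane transporters, is converted to the active triiodothyronine by type 2 deiodinase, and is inactivated by type 3 deiodinase. Inside the cell mu-crystallin can bind triiodothyronine, and the receptors THRA and THRB regulate genes as partners of retinoid X receptors. In the mammalian retina thyroid hormone acts through a cone form of THRB, known as TRβ2, to promote medium-wavelength opsin and to repress OPN1SW, and in mice the hormone sets where on the dorsal to ventral axis each opsin is made.

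The libraries held 15223640 to 22293593 fragments over genes, and SAG, the rod arrestin, stood at 2826 to 3820 FPKM in all 8, as the tissue label requires. Across all genes the 2 retinas of a diet correlated at 0.970 to 0.982 on the log scale. The pieces of tissue were not alike. GFAP, a marker of astrocytes and reactive glia, was 524 FPKM in ND replicate 1 and 12.1 FPKM in ND replicate 2, and CLDN5, a marker of endothelium, was 28.01 and 1.03 FPKM. The summed level of skeletal muscle genes was 588 FPKM in HSD replicate 2 and 8.02 to 13.4 FPKM in the other libraries. Values below are given for each retina for this reason.

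Of the 6 genes measured, TTR was lower than in both ND retinas under each of the 3 other diets, SLCO1C1 was lower in the 4 retinas of sucrose-fed rabbits than in the 4 others, CRYM was also lower in those 4 and higher in HFD, and THRB was lower in HFD and higher in HSD. THRA stayed within 69.7 to 75.6 FPKM. DIO3 overlapped with ND under every diet.

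**Figure D1:**
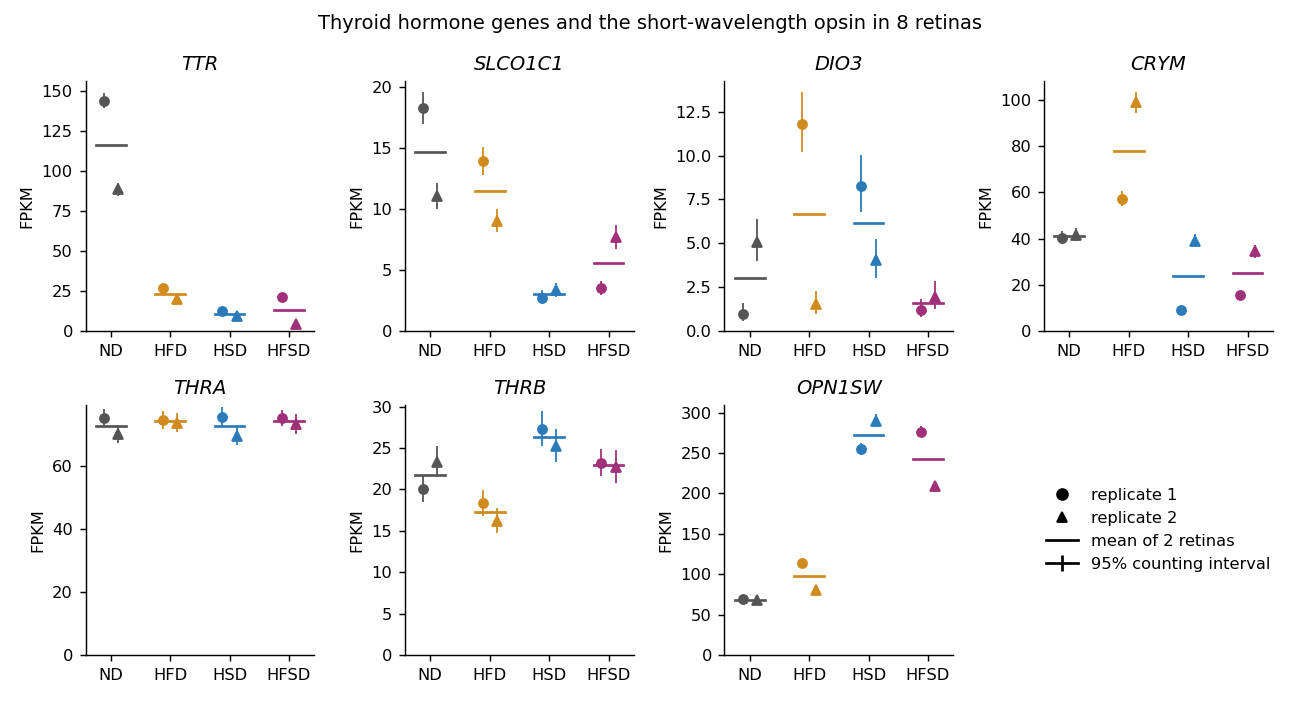
FPKM (linear axis from 0) of the 6 measured thyroid hormone genes and OPN1SW in each retina, with circles for replicate 1, triangles for replicate 2, horizontal lines for the mean of 2 retinas and vertical bars for 95% counting intervals. TTR is above 88 FPKM in ND and below 27 FPKM elsewhere, whereas THRA lies between 69.7 and 75.6 FPKM in every retina.

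TTR encodes transthyretin, the carrier of thyroxine and of the retinol-binding protein, which in the eye is made by the pigment epithelium. Its level was 144 and 88.6 FPKM for ND, 26.9 and 19.998 for HFD, 12.4 and 9.39 for HSD and 21.4 and 4.52 for HFSD. Every retina of the 3 diets lay below both ND retinas, while HFD overlapped with HFSD. These values rest on 3360 fragments in the library with most and 85 in the library with fewest, so counting error is small beside the gap between diets. The mean was 116 ± 39.2 FPKM in ND (SD, n = 2), 23.4 ± 4.87 in HFD, 10.9 ± 2.13 in HSD and 13.0 ± 11.9 in HFSD, so that ND was 4.96 times HFD, 10.7 times HSD and 8.98 times HFSD. On the log2(FPKM + 1) scale the differences from ND were -2.24 (HFD), -3.27 (HSD) and -3.36 (HFSD), each with a standard error of 0.58. With the ND retina of the higher level left out they were -1.89, -2.93 and -3.01. The size of the HFSD difference rested on single retinas of that diet, at -4.37 without HFSD replicate 1 and -2.35 without HFSD replicate 2. TTR thus went from percentile 95.4 of all tested genes in ND replicate 1 to percentile 22.8 at its lowest, in HFSD replicate 2.

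Many markers of the pigment epithelium, though not all, had lower levels where TTR was lower. RPE65, the isomerase of the visual cycle, was 119 and 74.6 FPKM for ND, 34.8 and 10.1 for HFD, 18.9 and 13.7 for HSD and 25.6 and 12.1 for HFSD. Of 17 tested pigment epithelium genes, 15 had a lower mean log2(FPKM + 1) than ND with HFD, 14 with HSD and 16 with HFSD. None were called by limma with Benjamini-Hochberg adjustment, and the median log2 difference of the 17 was -1.07, -1.28 and -1.51. LRAT, STRA6 and SLC6A20 reached 1 FPKM only in the ND retinas. They met the minimum level for testing through the group where they were high and could only count as lower, so the counts and medians partly follow from this filter. The summed level of the 20 listed genes with a row was 563 and 758 FPKM in the ND retinas and 232 to 506 FPKM in the other 6. Only SLC26A4 was at 0 in a library, HFD replicate 1. Most of this sum came from RGR and RLBP1, and RLBP1 is also counted among the genes of Müller glia below. RGR was 147 and 218 FPKM in HFD against 136 and 213 in ND, and MITF and SULF1 overlapped with ND under each diet. The ratio of TTR to RPE65 was 1.21 and 1.19 for ND, 0.772 and 1.99 for HFD, 0.656 and 0.685 for HSD and 0.837 and 0.374 for HFSD. It was below ND in all 4 sucrose-fed retinas and on both sides of ND in HFD. In whole tissue, fewer cells of a type and less RNA per cell cannot be told apart, and the share of pigment epithelium in the dissected tissue was not measured otherwise. Its part in the lower TTR was not tested.

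The 5 genes whose log2 levels followed TTR most closely over the 8 libraries were RDH5 (Pearson r = 0.974), PLS3 (0.971), SLCO1A2 (0.958), SLC22A8 (0.953) and STRA6 (0.943). RDH5, a retinol dehydrogenase of the pigment epithelium, was 14.8 and 13.5 FPKM in ND and 0.956 to 3.21 FPKM under the other diets. STRA6 is the receptor that takes up retinol from its binding protein, and SLCO1A2 and SLC22A8 are transporters of organic anions. These correlations describe 8 libraries that share depth and tissue composition, and the genes were picked for a high value.

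SLCO1C1 encodes a transporter with high affinity for thyroxine that is best known from the capillaries of the blood-brain barrier. It stood at 18.3 and 11.04 FPKM for ND, 13.9 and 9.02 for HFD, 2.73 and 3.33 for HSD and 3.51 and 7.67 for HFSD. The 4 retinas with dietary sucrose ranged from 2.73 to 7.67 FPKM and the 4 without from 9.02 to 18.3 FPKM, without overlap. The mean of the diets without sucrose was 3.03 times that of the sucrose diets. The difference from ND was -0.32 (HFD), -1.92 (HSD) and -1.28 (HFSD) on the log2(FPKM + 1) scale, with a standard error of 0.36, and -1.44 with a standard error of 0.26 for the sucrose diets against the others. The small HFD difference changed sign, to 0.02, when ND replicate 1 was left out, and the HFSD difference was -0.81 without HFSD replicate 1 and -1.76 without HFSD replicate 2. Fragments on the gene numbered 92 to 764 per library.

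Endothelial markers did not follow the order of SLCO1C1 in each retina. CLDN5 was 28.01 and 1.03 FPKM for ND, 20.3 and 6.76 for HFD, 1.16 and 0.794 for HSD and 0.534 and 6.85 for HFSD. ND replicate 2 thus had a CLDN5 level close to that of HSD, with an SLCO1C1 level of 11.04 FPKM against 2.73 and 3.33. Other endothelial markers also varied within a diet, with EMCN at 0 in ND replicate 2, HSD replicate 1 and HFSD replicate 1, and VWF and CDH5 at 0 in the latter pair. The summed level of the 16 endothelial genes with a row, most of it from SLC2A1 and KDR, was 391 to 478 FPKM without sucrose and 303 to 362 FPKM with it. Of these, 11 were tested, and 8 of the 11 had a lower mean log2(FPKM + 1) than ND in HSD and in HFSD. VWF, EMCN and ABCB1 met the minimum level for testing only through retinas without sucrose. Genes of Müller glia and astrocytes summed to 4417 to 5135 FPKM without sucrose and 2878 to 3252 FPKM with it, 13 of the 14 listed having a row and none being at 0 throughout. In this sum GLUL alone was 1489 to 2127 FPKM without sucrose and 722 to 890 FPKM with it. Of the 13, 3 were lower without overlap, where 12.9% of all genes did not overlap in either direction, and none were called. SLC1A3, KCNJ10, SOX9 and DKK3 overlapped between the groups. The part of either cell type in the lower SLCO1C1 was not tested. Over the 8 libraries the genes most like SLCO1C1 were GJA1, a gap junction protein of glia (r = 0.979), ENDOD1 (0.971), SPARC (0.958), PCP4L1 (0.957) and PDK4 (0.954).

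DIO3, the type 3 deiodinase that inactivates the hormone, was expressed at a low level. It was 0.999 and 5.10 FPKM for ND, 11.8 and 1.539 for HFD, 8.29 and 4.03 for HSD and 1.23 and 1.93 for HFSD. Both the lowest and the sixth-lowest value belonged to ND, and every diet overlapped with it. Only 16 and 74 fragments lay behind the ND values, whose 95% counting intervals of 0.571 to 1.62 and 4.01 to 6.41 FPKM did not meet, so the 2 ND retinas differed by more than counting error. The differences from ND of 0.71 (HFD), 0.97 (HSD) and -0.45 (HFSD) had a standard error of 0.79, and the sign changed in HFD and in HFSD when single retinas were left out. No direction can be given for DIO3. The genes with the nearest pattern, all found among the many tested, were RPL26L1 (r = 0.964), PRPSAP1 (0.956), WDR41 (0.934), NDUFA3 (0.927) and ZNF174 (0.924).

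CRYM encodes mu-crystallin, which binds triiodothyronine in the cytosol with NADPH. Its level was 40.3 and 41.8 FPKM for ND, 57.2 and 98.9 for HFD, 9.05 and 39.1 for HSD and 15.6 and 34.5 for HFSD. HFD lay above ND and the sucrose-fed retinas below it, but HSD replicate 2, at 39.1 FPKM, was barely under ND replicate 1. The difference from ND was 0.86 (HFD), -1.07 (HSD) and -0.79 (HFSD) on the log2(FPKM + 1) scale, with a standard error of 0.63, and the HSD value was -0.07 without HSD replicate 1 and -2.06 without HSD replicate 2. The HFSD value was -0.24 without HFSD replicate 1 and -1.34 without HFSD replicate 2, and the HFD value 1.25 without HFD replicate 1 and 0.47 without HFD replicate 2. The size of each CRYM difference therefore rested on single retinas. The retina with the low CRYM level in each sucrose diet was replicate 1, and HSD replicate 2, with the higher level, was the retina with muscle genes. CRYM is also made in skeletal muscle, and the part of muscle RNA in its 39.1 FPKM was not tested. The genes nearest to CRYM in pattern were NUP88 (r = 0.959), PQLC3 (0.948), CUTC (0.935), SHISA5 (0.926) and TRIP4 (0.912). TRIP4 encodes a coactivator first described as a protein that interacts with the thyroid hormone receptor.

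The 2 receptors differed in how far they varied. THRA, the more abundant, was 75.2 and 70.1 FPKM for ND, 74.6 and 73.7 for HFD, 75.6 and 69.7 for HSD and 75.2 and 73.4 for HFSD. Its highest value was 1.08 times its lowest and its coefficient of variation over the 8 retinas was 3.18%. Its differences from ND were 0.03, -0.00074 and 0.03 for HFD, HSD and HFSD on the log2(FPKM + 1) scale, with a standard error of 0.10, and their sign changed with the scaling or with the retinas used.

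THRB was 20.1 and 23.3 FPKM for ND, 18.3 and 16.2 for HFD, 27.3 and 25.3 for HSD and 23.2 and 22.7 for HFSD. Both HFD retinas were below ND, both HSD retinas above it, and HFSD lay within the ND range. The difference from ND was -0.31 (HFD), 0.27 (HSD) and 0.08 (HFSD), with a standard error of 0.12, and the HFSD value changed sign to -0.02 without ND replicate 1, when the HSD value was 0.16. The ratio of THRB to THRA was 0.267 and 0.333 for ND, 0.246 and 0.220 for HFD, 0.361 and 0.363 for HSD and 0.309 and 0.309 for HFSD. THRB is transcribed in cones, and its level was set against ARR3, the cone arrestin. The ratio of THRB to ARR3 ran from 0.0481 to 0.0646 without sucrose and from 0.0531 to 0.0606 with it, and the groups overlapped, as they did in THRB itself. Forms of THRA and THRB, such as TRβ2, are counted together in a gene's FPKM and were not separated.

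**Figure D2:**
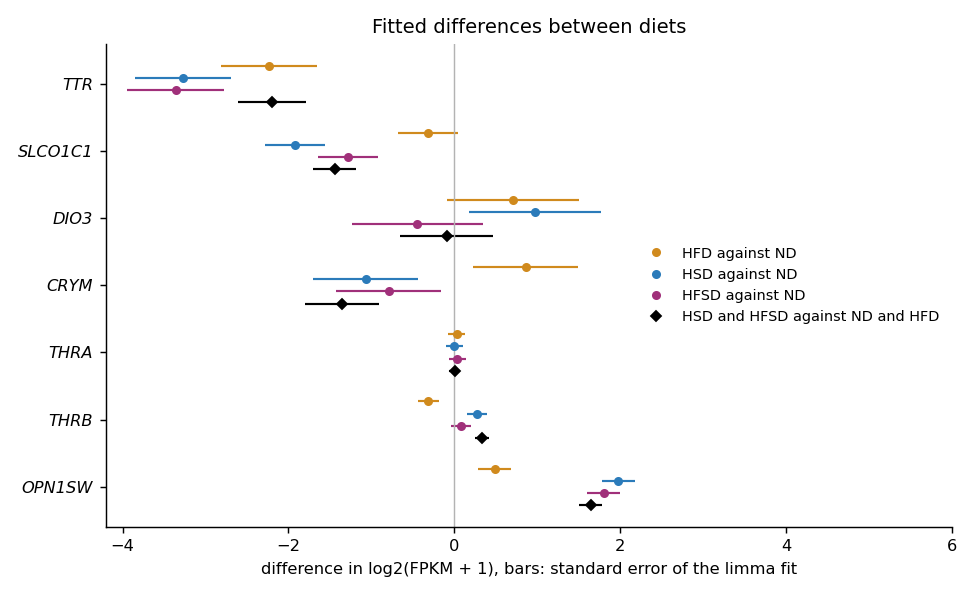
Difference in log2(FPKM + 1) from ND for HFD, HSD and HFSD (circles), and for HSD and HFSD together against ND and HFD (diamonds), with bars of 1 standard error from the limma fit. TTR lies between -3.36 and -2.20 in the 4 contrasts, THRA lies near 0 and OPN1SW lies furthest to the right in both sucrose diets.

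None of the 6 genes (0 of 6) had an adjusted p under 0.05 by limma with Benjamini-Hochberg adjustment in HFD, HSD or HFSD against ND or in the sucrose contrast, where over all 12204 genes 0.00819%, 0.0574%, 0.0164% and 0.344% did. The contrast of the 2 fat diets with the others and the interaction of fat and sucrose each called 0.00819% of all genes and none of the 6. An unadjusted p under 0.05 was reached by 2 of the 6 in each diet and by 4 of the 6 in the sucrose contrast, beside 526, 879, 985 and 2237 of the 12204 genes, and limma with voom on recovered fragments also called 0 of the 6. Retinas did not overlap with ND for 3 of the 6 in HFD (1 higher, 2 lower), 4 in HSD (1 higher, 3 lower) and 3 in HFSD (all lower), beside 25.9%, 39% and 42.3% of all genes. Between diets with and without sucrose, SLCO1C1 and CRYM did not overlap, beside 12.9% of all genes. By the study's fold of mean FPKM + 1, the upper limit was passed by 2 genes in HFD (CRYM and DIO3), 1 in HSD (DIO3) and 0 in HFSD, and the lower limit by 1 in HFD (TTR), 3 in HSD (TTR, SLCO1C1 and CRYM) and 4 in HFSD (the same and DIO3). Over all genes 2.55%, 5.3% and 5.06% passed either limit. Without HFSD replicate 1, the retina of that diet with the higher TTR level, TTR was called in HSD, in HFSD and in the sucrose contrast, and without HFSD replicate 2 in HSD. The genes were chosen with these contrasts in view, so nothing is read from the counts. Their median log2 difference was -0.14 (HFD), -0.53 (HSD) and -0.62 (HFSD), and that of all genes was 0.0063, -0.0018 and -0.0040.

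OPN1SW was 69.1 and 67.6 FPKM for ND, 114 and 80.9 for HFD, 255 and 290 for HSD and 276 and 209 for HFSD. The 4 retinas with sucrose were all above the 4 without, and both HFD retinas were above ND. The gene overlaps CALU in the RefSeq annotation, and CALU was 39.1 to 49.9 FPKM over the 8 libraries. The mean of HSD was 3.99 times ND and that of HFSD 3.55 times, with log2 differences of 1.98 and 1.80 and a standard error of 0.20, against 0.49 in HFD, which was 0.24 without HFD replicate 1 and 0.73 without HFD replicate 2. The 8 values fell into 4 and 4, with a gap of 0.86 on the log2 scale between the groups, larger than the range of 0.75 or 0.47 within either. For this reason no correlation over the 8 libraries is given with any of the 6 genes. OPN1SW was called by the limma fit in HSD and in the sucrose contrast but not in HFD or HFSD, contrasts that were known when it was chosen. The HSD call was lost without the filter on low values, without the mean-variance trend and with a replicate block. HFSD was called with quantile scaling and with voom.

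**Figure D3:**
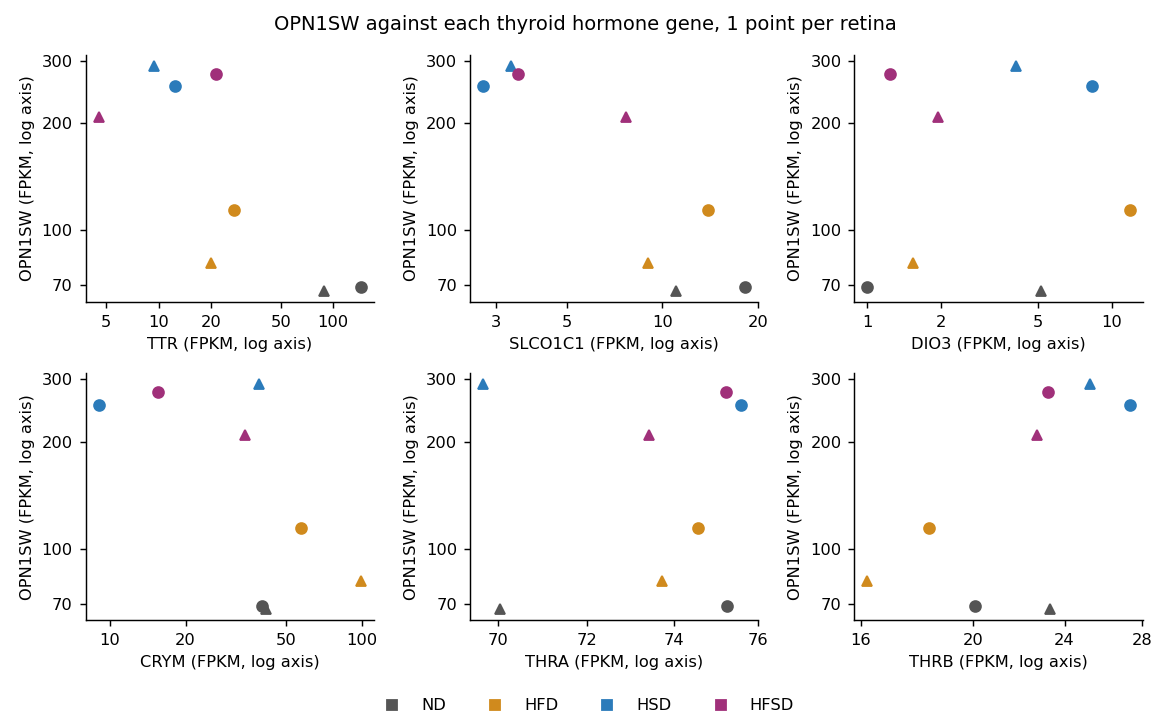
OPN1SW against each thyroid hormone gene (FPKM, both axes logarithmic), 1 point per retina, coloured by diet, with circles for replicate 1 and triangles for replicate 2. The 4 sucrose-fed retinas lie above 200 FPKM of OPN1SW and at the left for SLCO1C1 and CRYM, and overlap with the other 4 for DIO3 and THRA.

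Set beside OPN1SW, SLCO1C1 and CRYM separated the same 4 retinas in the opposite direction. TTR did not, since both HFD retinas had a TTR level far below ND (26.9 and 19.998 FPKM against 144 and 88.6) with OPN1SW at 114 and 80.9 FPKM, and HFSD replicate 1, with 21.4 FPKM of TTR, had 276 FPKM of OPN1SW. Within the sucrose-fed retinas the order was not opposite either, as HFSD replicate 2 had the lowest OPN1SW level (209 FPKM) and the lowest TTR level (4.52 FPKM), though also the highest SLCO1C1 level of the 4 (7.67 FPKM). THRB was highest in the 2 retinas of HSD, at 27.3 and 25.3 FPKM. In HFSD it was 23.2 and 22.7 FPKM, within the ND range of 20.1 to 23.3 FPKM, and in HFD 18.3 and 16.2 FPKM. The part of THRB in the OPN1SW level was not tested. OPN1SW per THRB was 2.90 to 6.24 without sucrose and 9.19 to 11.9 with it, without overlap, the same split that OPN1SW shows by itself.

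Other cone genes differed less between diets than OPN1SW. All 12 tested cone genes, THRB and RXRG among them, had a higher mean log2(FPKM + 1) in the sucrose diets than in ND and HFD, with a median log2 difference of 0.40 against 1.64 for OPN1SW, and 1 was called (0.344% of all genes were), PDE6C, the cone phosphodiesterase. PDE6C was 30.5 and 26.8 FPKM for ND, 24.8 and 23.6 for HFD, 44.4 and 50.9 for HSD and 38.7 and 41.5 for HFSD, and rose by 0.71 on the log2 scale in the sucrose contrast (adjusted p = 0.0311 by limma with Benjamini-Hochberg adjustment). This call was kept in 8 of 16 other settings (limma adjusted p of 0.0297 to 0.116) and, with single retinas left out, only without either ND retina. Against ND, however, all 12 had a lower mean log2(FPKM + 1) in HFD, with a median of -0.25 and 6 of them without overlap (25.9% of all genes), while OPN1SW was higher there. The medians against ND were 0.33 in HSD and 0.23 in HFSD. The cone list had a row for 12 of 15 genes and summed to 851 to 1234 FPKM without sucrose and 1269 to 1428 FPKM with it. The long- and medium-wavelength opsins were not analysed here. OPN1SW per ARR3 was 0.175 and 0.187 for ND, 0.300 and 0.276 for HFD, 0.566 and 0.610 for HSD and 0.696 and 0.518 for HFSD. The sucrose-fed retinas remained apart from the others on this scale, and HFD lay above ND.

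Of 9 tested genes that mark the dorsal retina, 8 had a lower mean log2(FPKM + 1) in the sucrose diets, as SLCO1C1 did, while OPN1SW was higher there. TBX5, a transcription factor of the dorsal retina, was 3.27 and 9.85 FPKM for ND, 6.61 and 11.7 for HFD, 0.0175 and 0.0320 for HSD and 0.0848 and 0.560 for HFSD. It fell by 2.82 on the log2(FPKM + 1) scale in the sucrose contrast (standard error 0.32, limma with Benjamini-Hochberg adjusted p = 0.0271). At no more than 0.560 FPKM in the sucrose diets, TBX5 passed the filter on low values only through the retinas without sucrose, and without this filter its limma adjusted p (Benjamini-Hochberg) was 0.0815. EFNB2, a dorsal ephrin, fell by 2.11 (adjusted p = 0.0311 by the same limma fit with Benjamini-Hochberg adjustment), from 12.3 to 24.2 FPKM without sucrose to 2.40 to 6.76 FPKM with it. With a pseudocount of 0.1 the TBX5 difference was -5.10 and with voom on recovered fragments -6.39, its level in the sucrose diets being close to 0. Over 16 other settings TBX5 was called in 8 and EFNB2 in 9 (limma adjusted p of 0.00916 to 0.1002 and 0.0190 to 0.105). Leaving out either HFD retina, either HSD retina or HFSD replicate 1 ended both calls, and leaving out HFSD replicate 2 also ended that of TBX5. Both calls were also lost without the filter on low values and with voom. Of the 9 dorsal genes, all tested, 9 had a lower mean log2(FPKM + 1) than ND in HSD and 8 in HFSD. In the sucrose contrast 2 were called, TBX5 and EFNB2, beside 0.344% of all genes. TBX5 and BMP4 reached 1 FPKM only in retinas without sucrose, so these counts partly depend on the filter. Their summed level was 108 to 185 FPKM without sucrose and 70.5 to 90.4 FPKM with it. Of 7 tested ventral genes, 5 were higher and 2 lower than ND on the same scale in HSD and in HFSD and none were called, with sums of 87.6 to 105 FPKM and 94.3 to 120 FPKM. In several mammals OPN1SW is made mainly by ventral cones. The labels do not say which region of the retina was taken, and its part in the OPN1SW, SLCO1C1 and CRYM levels was not tested.

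**Figure D4:**
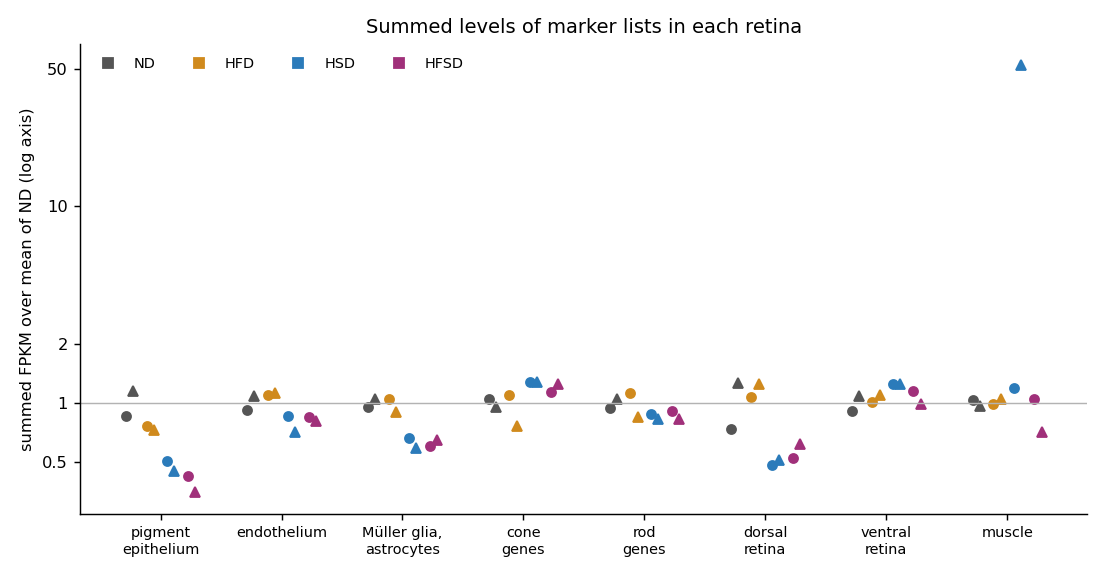
Summed FPKM of marker lists in each retina, divided by the mean of the 2 ND retinas (logarithmic axis), with colours for diets, circles for replicate 1 and triangles for replicate 2. The sums of pigment epithelium, Müller glia and astrocyte, and dorsal genes lie lower in the 4 sucrose-fed retinas, though not every gene of these lists does. Muscle genes stand out in HSD replicate 2.

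Other transporters of thyroid hormone were lower in the sucrose diets in most cases, with none called. Of 16 listed, 15 had a row and 11 were tested, and 10 of the 11 had a lower mean log2(FPKM + 1) in the sucrose diets and 1 a higher mean. SLCO1A2 and ABCB1 reached 1 FPKM only in retinas without sucrose, so they passed the filter on low values through the group where they were high. Their median log2 difference was -0.03 (HFD), -0.47 (HSD), -0.43 (HFSD) and -0.36 (sucrose contrast), near 0 for all genes in each. Summed over the list, the level was 122 to 139 FPKM without sucrose and 95.2 to 98.6 FPKM with it.

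SLCO1A2, an organic anion transporter that takes up thyroid hormones, was 4.07 and 3.55 FPKM for ND, 1.73 and 0.945 for HFD, 0.505 and 0.179 for HSD and 0.795 and 0.364 for HFSD. All 6 retinas of the other diets lay below ND, on 7 to 78 fragments each. SLCO1A2 reached 1 FPKM only in ND and HFD replicate 1, so it passed the filter on low values through the retinas where it was high. Its difference from ND was -1.06 (HFD), -1.85 (HSD) and -1.62 (HFSD) (standard error 0.26, adjusted p = 0.907, 0.119 and 0.162 by limma with Benjamini-Hochberg adjustment). SLC3A2, the heavy chain shared by the amino acid transporters that also carry thyroid hormones, was named after its values were seen. It was 54.9 to 65.1 FPKM without sucrose and 44.6 to 45.3 FPKM with it, a difference of -0.43 (adjusted p = 0.0877 in the limma fit with Benjamini-Hochberg adjustment).

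ABCB1, an efflux pump of endothelium, gave the second largest difference of the transporters in HSD and HFSD, -0.78 and -0.69 with a standard error of 0.57. It was 3.07 FPKM in ND replicate 1 but 0.0313 FPKM in ND replicate 2, so the diets overlapped. The genes with the next differences by size were ITGAV at -0.38 and LRP2 at -0.37 in HFD, and ITGB3 at -0.57 in HFSD, all without a call. ITGAV and ITGB3 form an integrin that binds thyroid hormone at the cell surface, and LRP2 is an endocytic receptor that takes up transthyretin. Of the serum carriers other than TTR, ALB was at most 0.06 FPKM and SERPINA7 was listed at 0 in all 8 libraries.

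**Figure D5:**
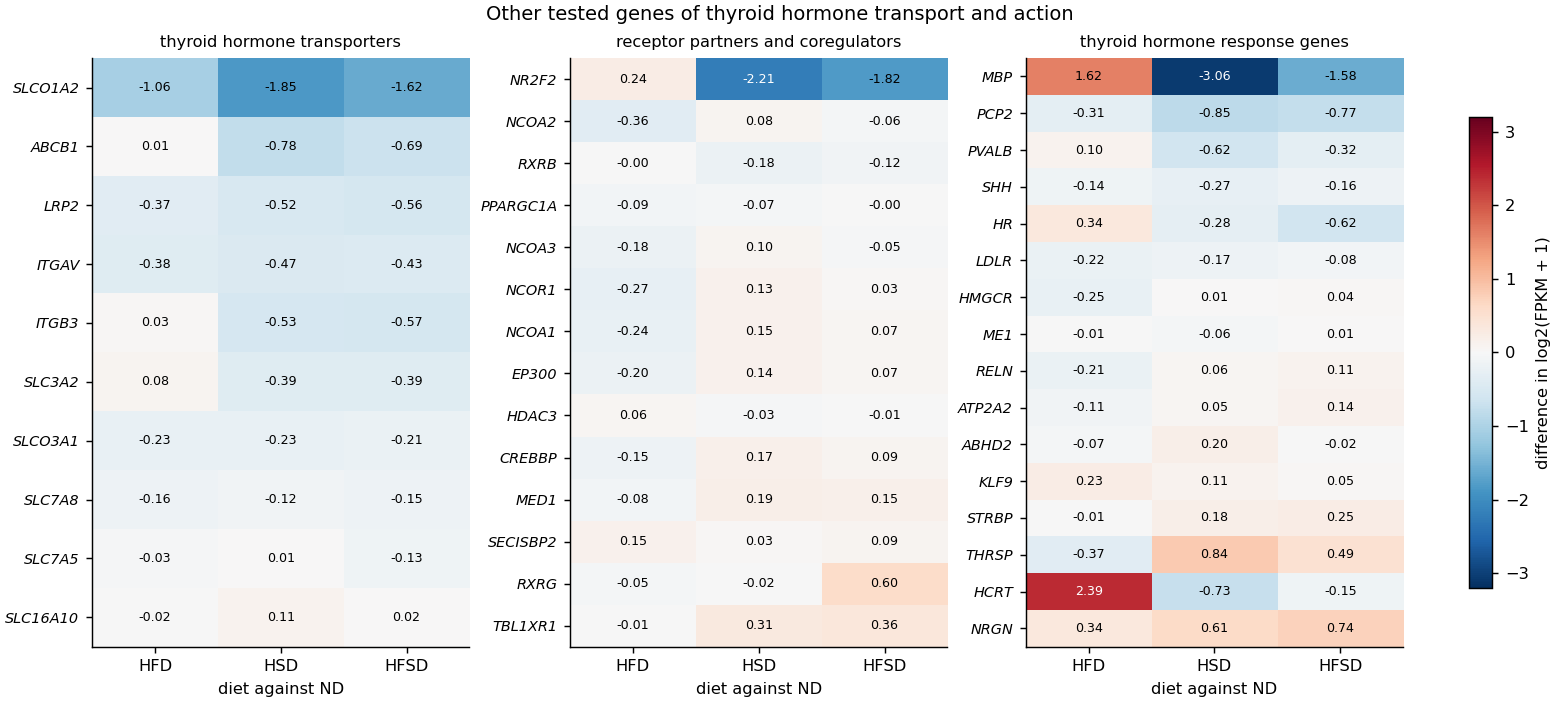
Differences from ND in log2(FPKM + 1) for tested genes of 3 lists, transporters, receptor partners and coregulators, and response genes, with each gene a row and each diet a column, for the genes reported. Among transporters SLCO1A2 is lowest in all 3 diets, and among receptor partners NR2F2 stands apart, at -2.21 in HSD and -1.82 in HFSD.

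Among receptor partners and coregulators, 14 of 22 listed genes had a row and all 14 were tested. None were called against ND, and their medians were -0.08 (HFD), 0.09 (HSD) and 0.05 (HFSD). In the sucrose contrast 1 was called, lower, and 0 higher, beside 0.344% of all genes in either direction. This was NR2F2, also known as COUP-TFII, an orphan receptor that competes for thyroid hormone response elements and is a gene of the dorsal retina in mice. It was 9.30 and 15.5 FPKM for ND, 12.1 and 17.3 for HFD, 1.39 and 2.34 for HSD and 1.83 and 3.82 for HFSD. It fell by 2.14 on the log2 scale (standard error 0.24, adjusted p = 0.0274 by limma with Benjamini-Hochberg adjustment), and the retinas with sucrose did not overlap with those without. The call was kept in 10 of 16 other settings (limma adjusted p of 0.00263 to 0.0863) and lost without either HFD retina, either HSD retina or HFSD replicate 1.

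RXRG, the retinoid X receptor of cones and a partner of THRB, was 10.7 and 7.20 FPKM for ND, 10.5 and 6.78 for HFD, 7.28 and 10.2 for HSD and 12.5 and 15.2 for HFSD. Both HFSD retinas lay above ND, by 0.60 on the log2 scale (standard error 0.26), without a call. TBL1XR1, a subunit of the corepressor complex, differed by 0.31 in HSD and 0.36 in HFSD, and MED1, the mediator subunit that binds nuclear receptors, by 0.19 in HSD. In HFD the differences with the largest size were those of the coactivator NCOA2 (-0.36), the corepressor NCOR1 (-0.27) and the coactivator NCOA1 (-0.24). None of these 5 genes were called in a diet.

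Of genes that thyroid hormone is known to regulate in brain, liver or other tissues, 20 of 27 listed had a row and 17 were tested. None were called against ND, and the medians of -0.0072 (HFD), -0.06 (HSD) and -0.02 (HFSD) were near those of all genes. In the sucrose contrast 1 was called, lower, and 0 higher, beside 0.344% of all genes in either direction. This was HR, a corepressor that hormone induces in brain, at 34.0 and 32.5 FPKM for ND, 46.3 and 38.5 for HFD, 26.9 and 27.6 for HSD and 21.2 and 21.4 for HFSD. It fell by 0.61 on the log2 scale (standard error 0.08, adjusted p = 0.0408 by limma with Benjamini-Hochberg adjustment), the HFSD retinas being lowest and the HFD retinas highest. The call was kept in 4 of 16 other settings (limma adjusted p of 0.0330 to 0.169) and lost without any 1 of the 8 retinas.

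KLF9, a direct target of the receptors in many cells, was 27.96 and 23.3 FPKM for ND, 26.6 and 34.1 for HFD, 24.2 and 31.6 for HSD and 25.3 and 27.6 for HFSD, so the diets overlapped. Its differences were 0.23, 0.11 and 0.05. MBP, a myelin protein induced by thyroid hormone in the brain, was 252 and 6.55 FPKM for ND, 172 and 104 for HFD, 4.34 and 4.16 for HSD and 4.02 and 41.9 for HFSD. Myelin occurs in the rabbit retina only along the medullary rays, and MBP differed more between the ND retinas than its lower value in ND differed from the sucrose diets on the FPKM scale. GFAP moved with MBP, at 524 and 12.1 FPKM in ND. HCRT, a neuropeptide gene, gave 2.39 in HFD (26.8 and 21.7 FPKM against 5.50 and 2.52 in ND) and PCP2, a gene of bipolar cells, -0.85 in HSD and -0.77 in HFSD, without a call.

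Deiodinases are selenoproteins, and the genes that make or deliver selenoproteins were also read. Of 7 tested genes, none were called against ND and 1 was called lower in the sucrose contrast (0.344% of all genes were called in either direction). SELENOP, the selenium carrier, was 282 and 238 FPKM for ND, 263 and 287 for HFD, 140 and 129 for HSD and 136 and 120 for HFSD. It fell by 1.02 on the log2 scale (standard error 0.10, adjusted p = 0.0122 by limma with Benjamini-Hochberg adjustment), and over 16 other settings the adjusted p of this limma fit, again by Benjamini-Hochberg, was 0.0121 to 0.0726. The call was kept in 13 of them and lost without HFD replicate 2, HSD replicate 2 or HFSD replicate 2. SECISBP2, which reads the selenocysteine codon into DIO3 and its relatives, was 16.2 to 19.9 FPKM in all 8 libraries. The Müller glia and astrocyte list, of which some genes were lower and others overlapped, summed to a lower level in the same retinas, as given above. The part of these cells was not tested.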

How the data were processed

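RNA of 8 rabbit retinas was sequenced from TruSeq libraries on an Illumina HiSeq instrument. Per the labels the authors used FastQC and TopHat2, and per the methods they discarded reads that mapped to several places. The authors deposited FPKM per gene for each library, computed with their own script. Genome build, annotation, strand setting and tool versions are not given in the sources used here, so no coordinates or sequences are printed. All value columns belonged to samples, with 0 left over.

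FPKM was analysed as log2(FPKM + 1) with limma 3.58.1 in R 4.3.3, 1 model of 4 diets over 8 libraries, a mean-variance trend and Benjamini-Hochberg adjustment over the 12204 protein-coding genes that reached 1 FPKM in 2 or more libraries. Tests were two-sided, and an adjusted p under 0.05 was called. An FPKM table keeps no counts, and a count model that had been planned for counts was replaced by this fit. FPKM values are whole multiples of 1 fragment's worth, and 100% of values above 0 came out whole within 0.01 of a fragment. Recovered fragments give counting intervals (95%, exact Poisson), which cover counting error only. The study's fold was (mean FPKM of a diet + 1) / (mean FPKM of ND + 1), with limits of 1.54 and 0.65. The pseudocount makes log2 differences of low genes smaller than the change in FPKM.

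The genes and lists were chosen with earlier results of these data known. Genes named are the chosen genes and OPN1SW, list genes called in any contrast, the 3 largest differences per diet in the pathway lists, and the 5 genes nearest in pattern to TTR, SLCO1C1, CRYM and DIO3. Those of OPN1SW are not given, because its libraries form separate groups. Other genes, such as KLF9, RXRG and the markers, are named as members of the lists after their values were seen. Some list genes that the rule names are not reported here, though counts and sums over lists include them. In the RefSeq annotation mOryCun1.1, used for gene neighbours only, CRYM overlaps ANKS4B (at most 0.187 FPKM), OPN1SW overlaps CALU (39.1 to 49.9 FPKM), and THRB overlaps a pseudogene and an unnamed gene, so that their reads cannot be told apart without strand.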

Additional observations from a re-analysis of the deposited data

How the results depend on the processing

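The differences of the 6 genes and OPN1SW were recomputed with pseudocounts of 0.1 and 0.5, without the filter on low values, with median ratio or quantile scaling, without the mean-variance trend, with a replicate block, on the 2 diets compared only, without each retina, and, chosen after seeing the data, with voom on recovered fragments. Of 469 values over 28 differences, 433 kept their sign within 1 SD between replicates, 15 moved by more and 21 changed sign. TTR, CRYM and OPN1SW kept their sign in every setting. With single retinas left out SLCO1C1 ran from -0.656 to 0.0218 in HFD, changing sign without ND replicate 1, and DIO3 ran from -0.46 to 1.87 in HFD, from -1.25 to 0.36 in HFSD and from -0.68 to 0.49 in the sucrose contrast. THRA ran from -0.0208 to 0.0809 in HFD, from -0.0588 to 0.0573 in HSD, from -0.0177 to 0.0840 in HFSD and from -0.0278 to 0.0302 in the sucrose contrast, and THRB from -0.0217 to 0.187 in HFSD. THRA also changed sign in HFD under quantile scaling (-0.0094), and in HSD under median ratio scaling (0.0085), quantile scaling (0.0342) and voom (0.0360).

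The number of the 6 genes called stayed 0 except without single retinas, where it ranged from 0 to 1 in HSD, HFSD and the sucrose contrast. The gene was TTR, in HSD without HFSD replicate 1 or 2 and in HFSD and the sucrose contrast without HFSD replicate 1. Genes past a fold limit ranged from 2 to 4 in each of the 3 diets when single retinas were left out, falling to 2 from 4 without HSD replicate 1 and without HFSD replicate 1. OPN1SW was called in 10 of 17 settings in HSD, 2 of 17 in HFSD and 15 of 16 in the sucrose contrast.

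Over all genes, 42 calls in the sucrose contrast became 8 without the filter, 18 with voom, 25 with the replicate block and 4 to 82 with single retinas left out, 7 in HSD became 3, 2, 5 and 3 to 17, and the 2 in HFSD became 4 with voom and the block, 4 with quantile scaling and 2 to 11 with single retinas left out. HSD gave 2 calls without the trend and 3 on its 2 diets alone, where HFD gave 2 and HFSD 0, and HFD gave 1 to 2 with single retinas left out. Deviations of same-numbered retinas correlated at -0.165 to 0.081 across genes, which shows no strong shared deviation but cannot exclude a pairing. The replicate block called 0 of the 6 genes in each contrast. The planned correlations of the 6 genes with OPN1SW are not given, because its libraries form separate groups. The calls of the sucrose contrast among list genes were kept in 13 (SELENOP), 10 (NR2F2), 9 (EFNB2), 8 (TBX5), 8 (PDE6C) and 4 (HR) of 16 settings, each with its sign. DIO3 (16 to 193 fragments) and SLCO1A2 (7 to 180) are limited by depth.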
